A study of Mus musculus with 1536 samples.

Results

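Described here are 7 genes for subunits of the GABA-A receptor, Gabra2, Gabra3, Gabrb1, Gabrb2, Gabrg1, Gabre and Gabrq, in single serotonin neurons of the mouse raphe. The members were taken by name, and all 7 were found among the 53263 genes of the expression table and among the 19 mouse GABA-A receptor subunit genes that were looked up in it. All 7 also had a mean of at least 5 CPM, the reads of a gene scaled to a common library total, as 9720 genes of the table had. The cells were 999 tdTomato-positive neurons of C57BL/6J mice aged 40 to 45 days, sorted singly into plates and made into Smart-seq2 libraries, which copy full-length polyadenylated RNA. All mice carried Cre under the control of the Sert gene, which encodes the serotonin transporter, and the Ai14 reporter, so that a cell is red if it has or has had Sert-driven Cre. The labels give a dissection of the principal dorsal raphe (pDR, 290 cells on 5 plates) and one of the whole dorsal raphe (all-DR, 709 cells on 11 plates), and in the study the latter also took in the median raphe.

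Each dissection drew on several mice in the study, but the labels tie no cell or plate to a mouse. Each dissection was therefore treated as 1 sample and no p-value was computed. The 16 plates give the spread, in which animals and plates cannot be told apart. A cell had a median of 827283 reads on genes (96834 to 2780443), with 755926 in the pDR and 869546 in the all-DR dissection. All 4 serotonin genes of a marker list (Tph2, Slc6a4, Slc18a2 and Fev) summed to a mean of 16580 CPM. The study shows its cells as Tph2-positive and a read of Tph2 was required here, so Tph2 could not test the label. The sorted cells matched their label in Slc6a4, Slc18a2 and Fev, which summed to a mean of 6972 CPM. Slc17a7, which marks other glutamate neurons, had no read in any cell, and Slc17a6 had a read in 2 cells. Slc32a1, the vesicular transporter that defines GABA neurons, had a read in 5 cells. One plate of the all-DR dissection stands apart in its make-up, plate SER48, which held 44 of the 147 Zeb2-positive cells of that dissection.

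GABA-A receptors are chloride channels built from 5 subunits around a central pore, and they carry fast inhibition by GABA. The usual receptor combines alpha and beta subunits, between which GABA binds, with a gamma subunit, which together with an alpha subunit forms the site for benzodiazepines and helps to hold the receptor at synapses. The epsilon subunit (Gabre) and the theta subunit (Gabrq) are less common, are known from hypothalamic and monoaminergic neurons, and lie with the alpha3 subunit (Gabra3) in 1 gene cluster on chromosome X. Receptors with epsilon respond little to benzodiazepines and can open without GABA. A message in a cell does not show that its protein is made or enters a receptor.

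The genes lie on 3 chromosomes, given here in GENCODE M21 coordinates of GRCm38 (mm10) from the first to the last base of each gene. On chromosome X, Gabre (72255999 to 72274803, minus strand) is followed after 157.9 kb by Gabra3 (72432681 to 72656848, minus strand) and after another 168.3 kb by Gabrq (72825178 to 72842602, plus strand). On chromosome 5, Gabrg1 (70751047 to 70842617) and Gabra2 (70957597 to 71095849) lie on the minus strand 115.0 kb apart, and Gabrb1 (71658113 to 72149037) lies on the plus strand beyond Gabra4. Gabrb2 lies on chromosome 11 (42419757 to 42629028, plus strand). Counting ignored strand, and 46 exon bases of Gabrb1, which is 0.332% of its exons, also belong to Gabra4, so a few of its reads may have been assigned uncertainly. The other 6 genes share no exon base with another annotated gene.

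Up to 250 bases upstream of the RefSeq start (GRCm38.p6) are printed for the genes of the chromosome X cluster, because Gabre and Gabrq turned out to be the pair of members with the closest levels from cell to cell, while Gabra3 between them followed them less. Capitals mark matches on either strand. The motif GGGCGG is the GC box. The motif CACCTG is the E-box that Zeb factors bind. The motif TATAAA is the TATA box. Each gene is shown 5′ to 3′ on its own strand, and for Gabre the window stops where its GENCODE gene model begins, at 72274803.
Gabre, chrX:72274804-72274971, minus strand: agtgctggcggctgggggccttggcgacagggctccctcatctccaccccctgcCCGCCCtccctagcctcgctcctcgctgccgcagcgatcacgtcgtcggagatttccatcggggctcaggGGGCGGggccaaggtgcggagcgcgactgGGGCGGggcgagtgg
Gabrq, chrX:72824928-72825177, plus strand: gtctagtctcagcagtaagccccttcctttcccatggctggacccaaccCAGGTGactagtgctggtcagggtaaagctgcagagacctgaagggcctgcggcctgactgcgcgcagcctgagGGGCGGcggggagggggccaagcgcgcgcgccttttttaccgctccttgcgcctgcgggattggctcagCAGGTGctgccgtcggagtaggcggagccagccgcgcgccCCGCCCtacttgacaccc
Gabra3, chrX:72656920-72657169, minus strand: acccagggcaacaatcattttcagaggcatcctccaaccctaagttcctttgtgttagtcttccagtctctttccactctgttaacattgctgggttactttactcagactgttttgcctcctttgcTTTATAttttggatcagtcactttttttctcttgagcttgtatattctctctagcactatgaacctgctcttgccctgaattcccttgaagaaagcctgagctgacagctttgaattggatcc
The full windows of Gabre and Gabrq were close in composition, with 68.8% and 67.2% G and C and 21 and 19 CpG dinucleotides, against medians of 52.4% and 6 over 32851 RefSeq promoter windows. They held 3 and 2 GC boxes and 1 and 2 E-boxes, the E-box of Gabre lying past the stretch shown. The window of Gabra3 had 42.4% G and C, no CpG, no GC box, no E-box and 1 TATA box. Of all windows of this length, 32.7% held the GC box, 17.2% the E-box and 12.4% the TATA box. The E-box was also present in the first windows of Gabra2 and Gabrb2 and absent from the window of Gabrg1 and from both windows of Gabrb1. A composition rich in G and C was not particular to Gabre and Gabrq. Gabra2 had 70% G and C, 18 CpG and 1 GC box, and the first window of Gabrb1 64.4%, 18 CpG and no GC box. The first window of Gabrb2 had 58.8%, 8 CpG and 1 GC box, and that of Gabrg1 35.6% and 1 CpG. Any part of these sequences in the levels was not tested.

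All 7 subunits were read in these neurons, at very different levels. To compare genes, levels were divided by exon length (CPM per kb, with all exons of a gene joined). Gabrb1, a beta subunit, was the highest member at 18.0 CPM per kb. Gabra2 followed with 9.27, Gabrq with 9.05 and Gabra3 with 8.34 CPM per kb. Gabre had 2.42, Gabrg1 1.85 and Gabrb2 1.10 CPM per kb. The neighbours Gabrq, Gabra2 and Gabra3 did not differ beyond the spread of the plates, since Gabrq was above Gabra2 on 7 of 16 plates and Gabra2 above Gabra3 on 9. Gabrb1 was above each other member on all 16 plates. Dividing by the longest transcript in place of all exons put Gabrg1 before Gabre and left the order of the other members as it was.

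Of the other subunit genes, Gabra4 had 3.58, Gabrg3 1.55 and Gabra5 1.43 CPM per kb. The delta, pi and rho genes (Gabrd, Gabrp, Gabrr1, Gabrr2 and Gabrr3) had a read in at most 2.6% of cells. Gabra6 had a read in 0 of 999 cells, which allows a share of up to 0.3%.

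The share of cells with at least 1 read followed a similar order. Gabrb1 was read in 997 cells (99.8%, exact 95% interval 99.3 to 100.0%, as are all intervals here, which hold counting error only). Gabra2 was read in 96.9% of cells (95.6 to 97.9%) and Gabra3 in 89.1% (87.0 to 91.0%). Gabrq was read in 64.6% (61.5 to 67.5%), Gabrg1 in 58.8% (55.6 to 61.8%), Gabre in 49.8% (46.7 to 53.0%) and Gabrb2 in 42.9% (39.8 to 46.1%). These shares depend on depth, and in the 990 cells with at least 250000 reads, thinned to that number, Gabrq was at 61.4%, Gabre at 43.6% and Gabrb2 at 36.3%. The 9 shallower cells, 1 of the pDR and 8 of the all-DR dissection, were left out of all thinned shares.

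Gabrb1 was the most even member. Among cells with a read its middle values ran from 187 CPM (lower quartile) to 302 CPM (upper quartile), around a median of 235 CPM. Gabrq ran from 21.5 to 108 CPM around 57.9 CPM, and Gabre from 6.24 to 34.2 CPM around 16.3 CPM. The theta and epsilon genes were not read in many cells and varied several-fold among the rest.

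**Figure D1:**
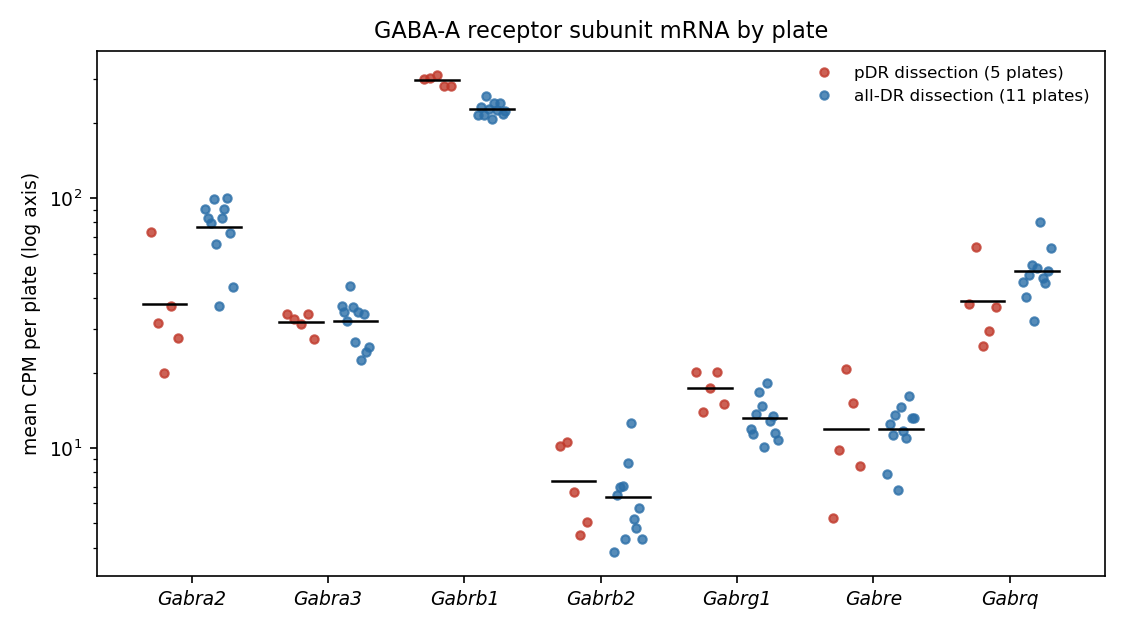
Mean CPM of each subunit gene on each plate (log axis), with 5 pDR plates in red and 11 all-DR plates in blue, and black lines for the mean of the plate means. Gabrb1 lies above all other members on every plate, and its pDR plates lie above its all-DR plates.

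Between the dissections, no member was called different under the rule used, which asked that the plate means do not overlap and that the means over plates, with 1 CPM added, have a log2 ratio of at least 1 in size. Of the 9720 genes, 2.91% met it. Gabrb1 alone among the members had plates that did not overlap, with 301, 303, 312, 282 and 282 CPM on the 5 pDR plates and 207, 226 and 256 CPM as the lowest, the median and the highest of the 11 all-DR plates. All 5 pDR plates were above all 11 all-DR plates, but the log2 ratio was 0.38. Of all genes, 4.81% were higher in the pDR without overlap at any size.

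Gabra2 had the largest ratio, with a log2 ratio of -1.01 for pDR over all-DR. Its pDR plates had 72.9, 31.6, 19.9, 37.1 and 27.6 CPM, and its all-DR plates 37.0 (lowest), 83.1 (median) and 99.9 CPM (highest). The first pDR plate lay within the all-DR range and the other pDR plates near or below its lower end, so the groups overlapped. Gabra3 had 32.1 ± 3.0 CPM (SD, n = 5 plates) in the pDR and 32.1 ± 6.7 CPM (SD, n = 11 plates) in the all-DR dissection. Gabrg1 had 17.3 ± 2.9 and 13.2 ± 2.5 CPM, Gabrb2 7.39 ± 2.83 and 6.36 ± 2.52 CPM, Gabre 11.9 ± 6.1 and 12.0 ± 2.7 CPM, and Gabrq 38.6 ± 15.0 and 51.2 ± 12.5 CPM, and the plates of each overlapped. On the 5 pDR plates, in the order given for Gabra2, Gabre had 5.23, 9.81, 20.8, 15.2 and 8.50 CPM.

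Most neurons contained the messages of several members at once. The median cell had 5 of the 7, with 111 cells (11.1%, 9.2 to 13.2%) having all of them and 2 cells none. An alpha and a beta member were read together in 990 cells (99.1%, 98.3 to 99.6%), and Gabrg1 with them in 587 (58.8%, 55.6 to 61.8%). Both alpha members, Gabra2 and Gabra3, were read in 868 cells (86.9%, 84.6 to 88.9%), Gabra2 alone in 100 and Gabra3 alone in 22. Gabrb2 was never read without Gabrb1, with 0 of 999 cells, which allows a share of up to 0.3%. Since Gabrb1 was read in 997 of the 999 cells, hardly any cell could have shown this, and the count says little about the pair.

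Of the possible combinations, 44 occurred, and the 4 most frequent held 43.1% of the cells. The first, all members but Gabrb2, was found in 165 cells (16.5%, 14.3 to 19.0%) and between 0% and 25.4% of the cells of a plate. All 7 together came next. Then came Gabra2, Gabra3, Gabrb1 and Gabrg1 without epsilon and theta, in 78 cells (7.81%, 6.22 to 9.65%), and Gabra2, Gabra3, Gabrb1, Gabre and Gabrq without Gabrg1, in 77 cells (7.71%, 6.13 to 9.54%). The frequent combinations thus shared Gabra2, Gabra3 and Gabrb1 and differed in Gabrg1, Gabrb2 and the epsilon and theta genes.

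Gabre and Gabrq were found in the same cells. Both were read in 447 cells (44.7%, 41.6 to 47.9%), Gabrq alone in 198 (19.8%, 17.4 to 22.4%), Gabre alone in 51 (5.11%, 3.82 to 6.66%) and neither in 303 (30.3%, 27.5 to 33.3%). Among the 498 cells with Gabre, 89.8% had Gabrq, and among the 501 cells without it, 39.5%. Seen from Gabrq, 69.3% of the 645 cells with it and 14.4% of the 354 cells without it had Gabre. The first difference had this direction on all 16 plates and the second on all 15 plates with enough cells. The cells with Gabre were not deeper, with a median of 800216 reads against 846859. After thinning, 89.4% of cells with Gabre and 39.8% of cells without it had Gabrq.

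The level of Gabrq also went up in steps with the reads of Gabre. Its median was 0 CPM in the 501 cells with no read of Gabre, 18.9 CPM in the 121 cells with 1 to 4 reads, 76.8 CPM in the 203 cells with 5 to 19 reads and 97.0 CPM in the 174 cells with at least 20. Gabra3 had medians of 19.1, 33.8, 36.7 and 39.9 CPM in the same steps. Gabrb1 had 233, 252, 238 and 230 CPM, and Gabrb2 had a median near 0 CPM in each.

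**Figure D2:**
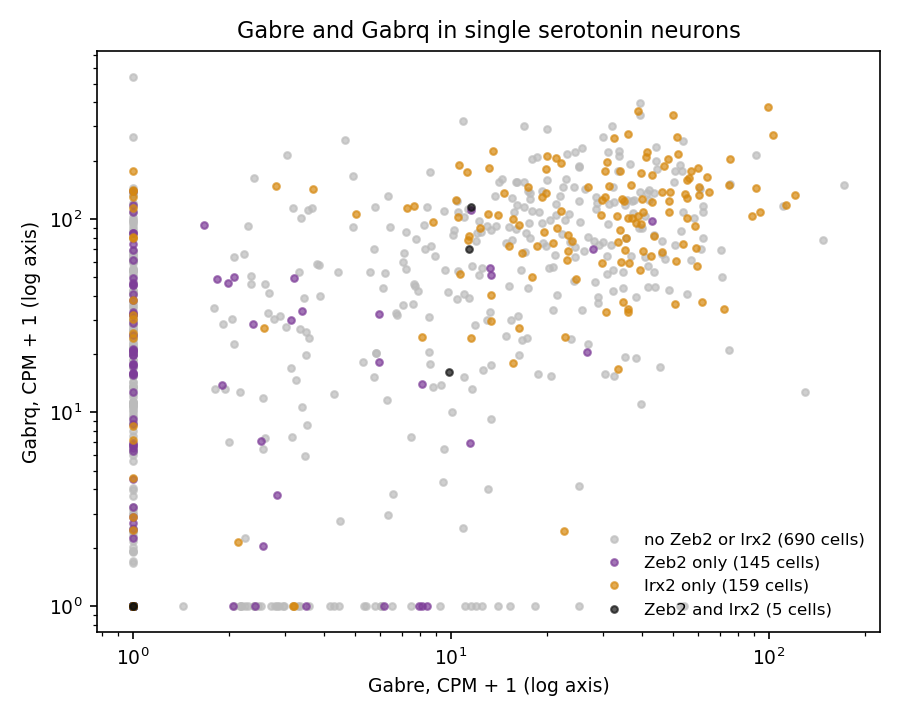
Gabre against Gabrq in each of the 999 cells, both as CPM + 1 on log axes, coloured by whether a read of Zeb2, Irx2, both or neither was present. Irx2-positive cells lie mostly at high values of both genes and Zeb2-positive cells mostly on the axis where Gabre is 0.

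Over the cells of a plate, Gabre and Gabrq were the closest of the 21 pairs of members. Their Pearson correlation of ln(CPM + 1) had a median of 0.69 over the 16 plates and ran from 0.42 to 0.81. It was 0.56, 0.55, 0.51, 0.76 and 0.60 on the 5 pDR plates and had a median of 0.75 on the all-DR plates, and was above 0 on every plate. The cells of a plate share its preparation and sequencing, so r describes these cells and carries no p-value. Regressing out the depth of the cells gave 0.68, and taking out the means of the Gad and Slc17a8 classes gave 0.63.

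The other members of the chromosome X cluster came next. Gabra3 had a median r of 0.31 with Gabrq (above 0 on 16 of 16 plates) and of 0.31 with Gabre (15 of 16). On chromosome 5, Gabra2 and Gabrg1 had 0.21 (16 of 16) and Gabrb1 and Gabrg1 0.17 (15 of 16). These 4 pairs and Gabra2 with Gabrb1 (0.07) are, with Gabre and Gabrq, the 6 pairs on a shared chromosome, and their median was 0.26. The median of the other 15 pairs was 0.05, the highest of them being Gabra3 and Gabrg1 with 0.17. Gabrb2 stood apart, with a median r between -0.03 and 0.03 with each other member. For scale, the median r with all 9719 other genes was 0.01 for Gabre, 0.00 for Gabrq and 0.03 for Gabra3.

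**Figure D3:**
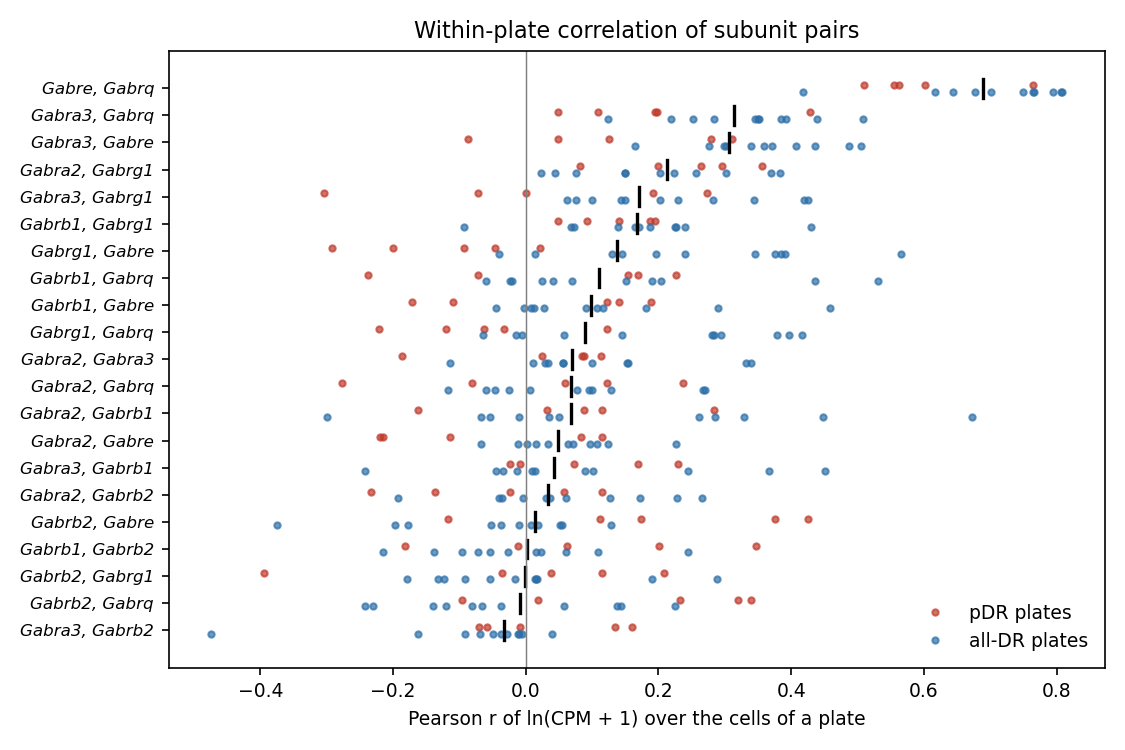
Pearson r of each of the 21 pairs on each plate, with pDR plates in red, all-DR plates in blue and a black bar at the median. Gabre with Gabrq lies above 0.4 on every plate, and the pairs with Gabrb2 scatter around 0.

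Among all 9719 genes, the gene most like Gabrq was Gabre, by the median within-plate r. For Gabre, Gabrq and Col28a1, a collagen, came first with the same rounded value of 0.69. Next for Gabre came Hs3st4, a heparan sulfate sulfotransferase (0.61), and for Gabrq Col28a1 (0.54) and Sema5a, a semaphorin (0.53). Gabra3 was most like Gabrq and Gabre, followed by Hcrtr1 (0.27), the orexin receptor 1. For Gabrb2, which went with no other member, Pou3f1 (0.21) and Tnfrsf11b (0.19) were among the 3 most like genes. For Gabra2, Gabrb1 and Gabrg1 the first genes were Armc8 (0.28), Cdk14 (0.30) and Ntm (0.28), then Mpnd (0.27) and Arl10 (0.27), Sv2b (0.29) and Kcnk9 (0.28), and Crtac1 (0.27) and Adra1b (0.25). These values were low, and in sparse counts a low r is only a description.

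Marker genes were then used to divide the cells: Gad1 or Gad2, which make GABA, Slc17a8, the vesicular glutamate transporter 3, and Zeb2 and Irx2, which encode transcription factors. A cell was positive with at least 1 read. There were 347 Gad-positive, 649 Slc17a8-positive, 150 Zeb2-positive and 164 Irx2-positive cells, and 136 cells had both Gad and Slc17a8. The number of positive cells that rested on 1 to 4 reads was 11 for Gad, 40 for Slc17a8, 9 for Zeb2 and 15 for Irx2. Zeb2 was almost limited to the all-DR dissection, with 147 cells there and 3 in the pDR, and Irx2 had 154 and 10 cells. Only 5 cells had both Zeb2 and Irx2. The contrast is the log2 ratio of the mean CPM plus 1 in positive over negative cells within a plate, as the median over plates with at least 5 cells of each kind. It was called where this median was at least 1 in size and at least 80% of plates had its sign.

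Zeb2-positive neurons had little message of the epsilon, theta and gamma1 subunits. These 3 of 7 members were called lower and none was called higher, beside 4.61% of 9670 genes called lower and 1.78% called higher. Gabre had a mean of 1.32 CPM in the 147 positive and 14.7 CPM in the 562 negative cells of the 11 plates. Its positive means ran from 0.09 to 3.54 CPM over plates and its negative means from 10.5 to 25.6 CPM, without overlap. The median contrast was -3.10 (SD over plates 0.67) and negative on 11 of 11 plates. A read of Gabre was found in 21.1% of positive and 59.6% of negative cells.

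Gabrq had a mean of 16.3 against 59.9 CPM in the same cells. Its plates ran from 8.07 to 28.7 CPM in positive and from 43.0 to 90.5 CPM in negative cells, again without overlap. The contrast was -1.95 (SD 0.62) and negative on 11 of 11 plates. Gabrg1 had 5.90 against 15.5 CPM and a contrast of -1.60 (SD 1.10), negative on 10 of 11 plates, and its plates overlapped, with 2.02 to 16.1 CPM in positive and 12.0 to 23.0 CPM in negative cells.

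The remaining members were not called in this contrast. Gabra3 had -0.51 (negative on 10 of 11 plates), Gabrb1 -0.39 (10 of 11), Gabrb2 -0.23 and Gabra2 0.10. Gabra2 had 88.7 CPM in positive and 80.5 CPM in negative cells. The 7 members had a median of -0.51, beside 0.00 over all genes of the contrast. Without plate SER48 the contrasts were -3.15 for Gabre, -2.02 for Gabrq and -1.47 for Gabrg1.

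Irx2-positive neurons had more message of the same 3 subunits. Gabre, Gabrq and Gabrg1 were called higher and no member was called lower, beside 0.464% of 9701 genes called higher and 1.15% called lower. Gabre had a mean of 28.2 CPM in the 160 positive and 7.54 CPM in the 634 negative cells of the 12 plates. Its positive means ran from 17.2 to 42.0 CPM and its negative means from 3.91 to 13.5 CPM, without overlap. The contrast was 1.75 (SD 0.55) and positive on 12 of 12 plates. Reads of Gabre were present in 83.1% of positive and 44.2% of negative cells, although the positive cells were the shallower ones, with a median of 783036 reads against 843549 over all plates.

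Gabrq had 101 against 39.9 CPM, a contrast of 1.37 (SD 0.31) and no overlap, with 63.6 to 156 CPM in positive and 24.6 to 60.5 CPM in negative cells over the 12 plates. Gabrg1 had 23.4 against 11.1 CPM and a contrast of 1.14 (SD 0.77), also positive on 12 of 12 plates, but its plates overlapped, with 12.4 to 40.1 and 3.44 to 15.1 CPM. The contrast of Gabra3 was 0.77 (positive on 10 of 12 plates) and that of Gabra2 0.54 (12 of 12), with 46.3 against 29.4 CPM and 107 against 69.3 CPM. Gabrb1 (0.03) and Gabrb2 (0.10) were near 0, and the 7 members had a median of 0.77, beside 0.02 over all genes.

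The classes share negative cells, since a Zeb2-negative cell may be Irx2-positive. With Irx2-positive cells left out, an alternative added after seeing the data, the Zeb2 contrast was -2.72 for Gabre and -1.51 for Gabrq, both still called, and -1.23 for Gabrg1, no longer called. With Zeb2-positive cells left out, the Irx2 contrast was 1.40 for Gabre, 1.07 for Gabrq and 0.94 for Gabrg1, the last no longer called. The 690 cells with neither factor lay between, with a mean Gabre of 9.52 CPM and Gabrq of 42.7 CPM. The 159 cells with Irx2 alone had 29.2 and 104 CPM, and the 145 cells with Zeb2 alone 1.42 and 15.8 CPM. These means pool the dissections, which differ in make-up. Of the 164 Irx2-positive cells 154, and of the 150 Zeb2-positive cells 147, came from the all-DR dissection. Dissection and factor class were thus not separated in these means. With the means of the Zeb2 and Irx2 classes taken out within plates, also added after seeing the data, Gabre and Gabrq still had a median r of 0.64.

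**Figure D4:**
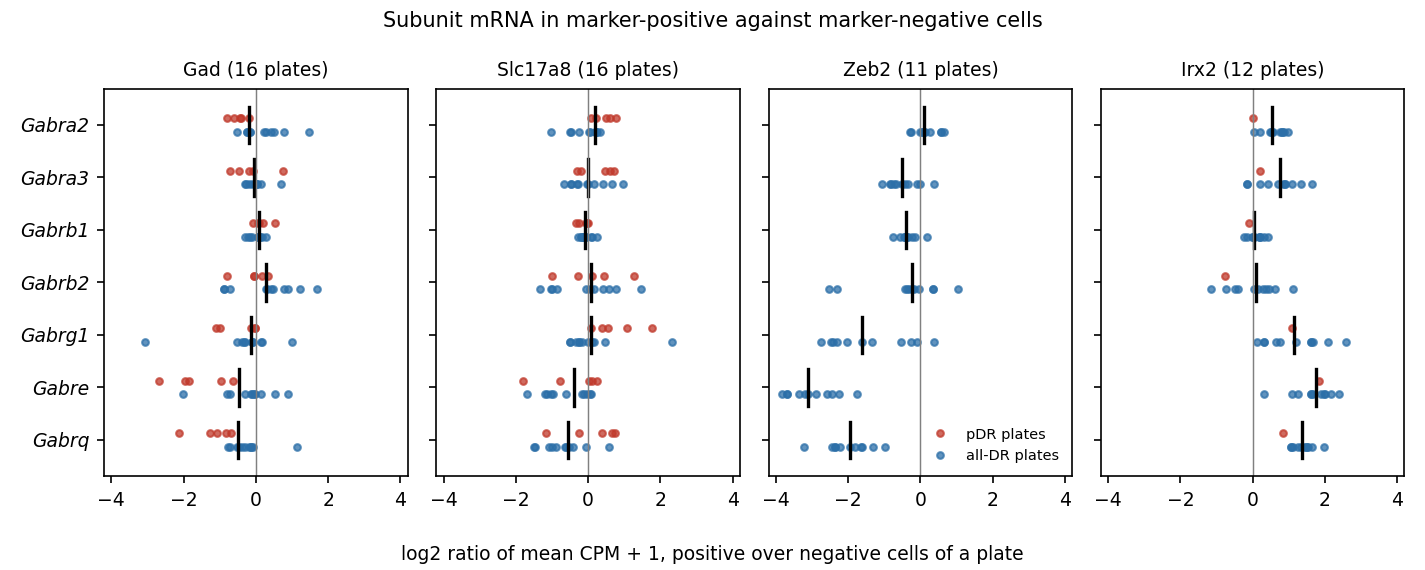
Log2 ratio of mean CPM + 1 in marker-positive over marker-negative cells, one point per plate (pDR red, all-DR blue) with a black bar at the median. Every plate lies below 0 for Gabre and Gabrq in the Zeb2 panel and above 0 in the Irx2 panel, and in the Gad panel Gabrq lies below 0 on 15 of 16 plates and Gabre on 13, both with all 5 pDR plates below 0. In the Slc17a8 panel both have plates on either side of 0, with 12 and 11 of 16 below.

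Markers of other cells were read in the same classes. A list of 8 astrocyte genes summed to 366 CPM in Zeb2-positive and 958 CPM in Zeb2-negative cells of the all-DR dissection, in both dominated by Aldoc, with 336 and 935 CPM, with all 8 read in both. Without Aldoc the sums were 29.8 and 22.9 CPM. For Irx2 the astrocyte list summed to 777 CPM in positive cells, where 7 of the 8 were read, and 850 CPM in negative cells of the all-DR dissection, and to 15.7 and 26.8 CPM without Aldoc. The 6 oligodendrocyte genes, of which Mbp was the most abundant, summed to means of 166 CPM in Zeb2-positive and 213 CPM in all-DR Zeb2-negative cells, and of 183 CPM in Irx2-positive and 206 CPM in all-DR Irx2-negative cells. The medians of these sums had the opposite order, with 28.1 and 22.9 CPM for Zeb2 and 33.2 and 22.1 CPM for Irx2. The microglial list summed to 1.51 CPM in Zeb2-positive and 0.46 CPM in all-DR Zeb2-negative cells, and the endothelial list to 0.305 and 0.545 CPM. In Irx2-positive and all-DR Irx2-negative cells, the microglial list summed to 0.387 and 0.76 CPM and the endothelial list to 0.0836 and 0.625 CPM. Slc32a1, the defining marker of GABA neurons, was at 0 in the Zeb2-positive and in the Irx2-positive cells. The list of oligodendrocyte precursor genes summed to 4.36 CPM in Zeb2-positive and 2.51 CPM in all-DR Zeb2-negative cells, and the dopamine neuron list to 0.0811 and 0.614 CPM. For Irx2, these lists summed to 2.06 and 2.4 CPM and to 0.526 and 0.499 CPM. Without the 54 cells that had at least 10 CPM over Aqp4, Gfap and Aldh1l1, the contrasts were -2.97 and 1.71 for Gabre, and -1.84 and 1.30 for Gabrq. The part of the other markers in the contrasts was not tested.

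For the transmitter markers, no member was called over the 16 plates, beside 0.803% of 9718 genes called for Gad and 0.833% of 9719 genes for Slc17a8. The 5 members other than Gabre and Gabrq had contrasts between -0.18 and 0.29 for Gad and between -0.09 and 0.20 for Slc17a8. In Gad-positive cells Gabrq had 35.7 against 55.3 CPM, a contrast of -0.49 that was negative on 15 of 16 plates, and Gabre 8.13 against 13.2 CPM, a contrast of -0.47 that was negative on 13 of 16. In Slc17a8-positive cells Gabrq had 43.9 against 56.9 CPM, a contrast of -0.56 that was negative on 12 of 16 plates, and Gabre 9.66 against 14.8 CPM, a contrast of -0.39 that was negative on 11 of 16.

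Within the pDR, Gabre and Gabrq were called lower in Gad-positive cells, 2 of 7 members, beside 2.91% of 9722 genes called on these plates in either direction. On the 5 pDR plates Gabre had 4.23, 4.33, 14.5, 3.88 and 3.84 CPM in positive cells and 7.15, 19.9, 29.5, 30.2 and 16.6 CPM in negative cells of the same plates. It was lower in the positive cells of each plate, although the groups overlapped between plates, with a median contrast of -1.86, between -1.91 and -1.42 when a plate was left out. Gabrq had 26.9, 28.5, 20.1, 18.0 and 28.4 CPM against 58.2, 129, 33.1, 44.6 and 50.9 CPM, lower in the positive cells of each plate and with no overlap between the groups. Its contrast of -1.09 became -0.95, and was no longer called, without plate SER13 or without plate SER39.

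On the 11 all-DR plates the same contrast was -0.09 for Gabre and -0.31 for Gabrq, with no member called beside 0.507% of 9669 genes. The difference between the dissections was not tested. For Slc17a8 no member was called within the pDR (2.24% of 9723 genes) or the all-DR plates (0.714% of 9670 genes). For Slc17a8, Gabrq had a contrast of 0.37 on the pDR plates and -0.63 on the all-DR plates, and Gabre 0.01 and -0.61.

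The cells with neither Gad nor Slc17a8 had both genes more often than the other transmitter classes. Of these 139 cells, 77.7% (69.9 to 84.3%) had both Gabre and Gabrq, against 44.4% (40.1 to 48.9%) of the 513 cells with Slc17a8 alone, 36.8% (28.7 to 45.5%) of the 136 with both markers and 28.9% (22.9 to 35.5%) of the 211 with Gad alone. Thinned to equal depth, the shares were 73.7%, 37.8%, 32.1% and 23.7%, in the same order. These shares pool dissections of different make-up, with 136 of the 211 cells with Gad alone from the pDR and 116 of the 139 cells with neither marker from the all-DR dissection. Within the pDR the shares were 91.3% (72.0 to 98.9%, 23 cells) with neither, 38.1% (27.7 to 49.3%) with Slc17a8 alone, 34.0% (20.9 to 49.3%) with both and 23.5% (16.7 to 31.6%) with Gad alone. Within the all-DR dissection they were 75.0% (66.1 to 82.6%), 45.7% (40.9 to 50.5%), 38.2% (28.1 to 49.1%) and 38.7% (27.6 to 50.6%). The cells with neither marker thus had the highest share in both dissections. The intervals of the other 3 classes overlapped one another within each dissection. Since these intervals hold counting error over pooled cells only, their overlap does not show the classes to be alike. Of the 139 cells 39 were Irx2-positive, and among the 100 others 73.0% still had both. On the 11 plates with enough such cells, the contrast against all other cells was 0.97 for Gabrq, positive on 11 of 11 plates, and 0.98 for Gabre, positive on 10 of 11. Both were under the size of 1 that a call needs, so 0 of 7 members were called, beside 0.835% of 9699 genes.

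**Figure D5:**
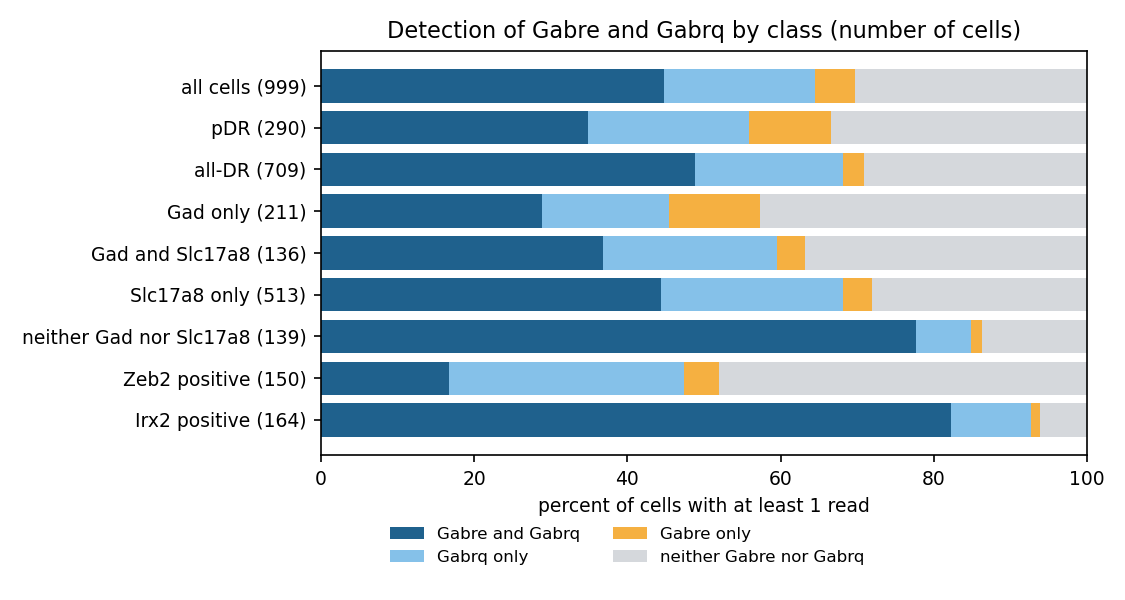
Percent of cells with a read of both Gabre and Gabrq, of 1 of them or of neither, by dissection and by marker class, with the number of cells in brackets. Both genes were read in 82.3% of Irx2-positive, 77.7% of double-negative and 16.7% of Zeb2-positive cells.

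By factor, both Gabre and Gabrq were read in 135 of 164 Irx2-positive cells (82.3%, 75.6 to 87.8%) and in 25 of 150 Zeb2-positive cells (16.7%, 11.1 to 23.6%). Neither was read in 6.10% (2.96 to 10.9%) of Irx2-positive and in 48.0% (39.8 to 56.3%) of Zeb2-positive cells. Gabrq without Gabre was the more frequent partial state in Zeb2-positive cells, with 30.7% (23.4 to 38.7%) against 4.67% (1.90 to 9.38%) for Gabre without Gabrq. By dissection, both were read in 34.8% (29.4 to 40.6%) of pDR and 48.8% (45.1 to 52.5%) of all-DR cells, but single pDR plates ranged from 17.9% to 44.7% and all-DR plates from 38.5% to 57.7%, so that the groups overlapped.

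The other subunit genes gave few calls in the same contrasts. Of the 12, 5 to 6 passed the minimum of 5 CPM, depending on the contrast. Gabrg3, a gamma subunit, was called higher in Slc17a8-positive cells, with 23.6 against 9.05 CPM and a contrast of 1.03 (positive on 14 of 16 plates), and lower in Zeb2-positive cells, with 9.16 against 21.9 CPM and a contrast of -1.07 (negative on 11 of 11). By dissection, its Slc17a8 contrast was 3.08 on the pDR plates (positive on 5 of 5). On the all-DR plates it was 0.80 (positive on 9 of 11), under the size of 1 that a call needs. No other of the 12 was called in any of the 4 contrasts.

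Genes for the assembly and anchoring of the receptors, and for its chloride gradient, gave 1 call in these contrasts. Of 12 assembly and synapse genes, 11 passed the minimum, and among them are Gphn, which encodes the scaffold gephyrin (27.5 CPM, 87.2% of cells), Nlgn2, the adhesion protein of inhibitory synapses (50.5 CPM, 99.3%), and Lhfpl4, which helps to hold receptors at synapses (51.2 CPM, 96.5%). None of the 12 was called for Slc17a8, Zeb2 or Irx2, and 1, Mdga1, which was under the minimum with 2.79 CPM, was called lower for Gad (-1.03). Slc12a5, the transporter that removes chloride from neurons, had 74.6 CPM and a read in 99.3% of cells, and Slc12a2, which brings chloride in, 9.00 CPM and 53.2%. Neither these nor Clcn2 nor Dbi was called in any of the 4 contrasts.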

How the data were processed

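Per the labels, red cells were sorted singly into 96-well plates and made into Smart-seq2 libraries. The authors aligned the reads to mm10 with STAR 2.6.1a, counted them with HTSeq 0.11.2 without regard to strand, removed chromosome Y genes and deposited CPM, per the submitters' processing notes and the study's methods. Every deposited CPM value was a whole number of reads within 0.001 (100% of values), so reads were recovered. A count test was not run, since the labels tie no cell or plate to an animal, although the study used several per dissection, and each dissection was treated as 1 sample. The table holds 999 of 1536 labelled cells, all of them over 50000 reads and 300 genes and with at least 1 read of Tph2, as was required here. The other 537 were not analysed here, and 0 columns were left without a label. No 2 cells were identical.

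Levels are means over cells. Contrasts, correlations and combinations are defined where first used, with a pseudocount of 1 CPM, and shares carry Clopper-Pearson 95% intervals, which cover counting error only, since reads without molecular identifiers are not independent molecules. A share of 0 is given with the limit that 3 counts allow. Lengths and positions are from GENCODE M21 and promoters from RefSeq, where all 7 members were matched. The genes named are the members, the listed other subunit, assembly and chloride genes, the markers, and the 3 genes most like each member. Values of some listed genes, subunit and marker genes among them, are not reported here. The members and lists were chosen with earlier results of these data known. The steps of Gabre reads, the class with neither transmitter marker and its contrast were added after seeing the data. Python 3.11.15, NumPy 2.4.6, SciPy 1.17.1 and pandas 2.3.3 were used. The contrast and correlation steps were tested on simulated data. Alternatives were other minimums for a positive cell, pseudocounts of 0.1 and 10 CPM, thinning to 250000 reads, rank correlation, depth and class corrections, other plate sets and leaving out each plate.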

Additional observations from a re-analysis of the deposited data

How the results depend on the processing

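No paired analysis was possible because the dissections share no replicate that comes from the same animal, and no test was run. Of 1777 values recomputed for 87 results, 0 changed the direction of a called contrast. Most of these values were levels, shares, correlations, counts or uncalled contrasts, which could not have done so. Uncalled contrasts near 0 did change sign when a plate was left out. For Gabra3 they ran from -0.034 to 0.003 for Slc17a8 and from -0.045 to 0.052 between the dissections. Leaving out each plate in turn kept the numbers of called members at 3 for Zeb2, 3 for Irx2 and 0 for Gad, Slc17a8 and the dissections, and gave 0.68 to 0.70 for the correlation of Gabre and Gabrq, 43.8% to 45.6% for the share of cells with both, and 1.68 to 1.83 (Gabre), 1.33 to 1.41 (Gabrq) and 1.08 to 1.21 (Gabrg1) for the Irx2 contrasts, and -3.15 to -3.00 (Gabre), -2.09 to -1.88 (Gabrq) and -1.81 to -1.47 (Gabrg1) for the Zeb2 contrasts. The numbers of genes called without each plate ran from 72 to 89 for Gad, 77 to 91 for Slc17a8, 601 to 652 for Zeb2, 158 to 184 for Irx2 and 256 to 393 for the dissections.

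The pseudocount mattered most for Gabre, which is low. Its Zeb2 contrast was -4.0 with 0.1 CPM and -1.18 with 10 CPM, and its Irx2 contrast 1.04 with 10 CPM. With 10 CPM the genes called were 22 for Gad, 30 for Slc17a8, 275 for Zeb2, 61 for Irx2 and 131 for the dissections, against 78, 81, 618, 157 and 283, and with genes down to a mean of 1 CPM included 126, 122, 1034 and 273 for the 4 markers. Gabrg1 was the least firm call: it was at -0.80 (Zeb2) and 0.76 (Irx2) with 10 CPM, and its Irx2 contrast at 0.81 with all cells pooled and 0.98 with plates of at least 10 cells of each kind. For Gad, 143 genes were called with cells pooled, 283 genes and 2 members on pDR plates and 49 genes on all-DR plates, and for Slc17a8 218 genes on pDR plates. The cause was not tested. The Zeb2 and Irx2 contrasts were not run on pDR plates alone, where too few plates had 5 positive cells. With at least 5 reads or 10 CPM for a positive cell, the mean number of members per cell was 4.5 or 4.2 in place of 5.02, and with 10 CPM both Gabre and Gabrq were found in 31.0% of cells in place of 44.7%. Of the values that answer a comparison, 20 of 445 moved by more than the spread between plates or, for counts, by over 1.5 times, and of the values of single members and shares 11 of 1332. Depth limits the low members: a gene not read in a cell, as Gabrb2 in most, was below detection there and not shown to be absent.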
